A study of Mus musculus with 11 samples.

Results

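Tibialis anterior (TA) muscle of *mdx* mice that had received Pip6e-PMO was compared with TA muscle of C57 wild-type mice, to describe which messenger RNAs still differed from wild-type and which differed only after the treatment, 2 weeks after the injection. Intensities of a gene array were taken to log2, a gene was kept where its mean linear signal reached 30 in C57 or in treated mice, and where a symbol had more than 1 probe set, the brightest on the log2 scale stood for it. This left 11734 of the 21759 gene symbols on the array, of which 3128 differed between treated and C57 muscle at an adjusted p under 0.05. The labels give the strain of all 11 mice as C57/B10. The C57 group held 3 wild-type mice with no treatment. The untreated group held 4 *mdx* mice, and the treated group held 4 *mdx* mice given a single tail vein injection of 12.5 mg/kg Pip6e-PMO in saline at 12 weeks of age. All 11 mice were 14 weeks old when the muscle was taken, and RNA of each was put on a separate Mouse Gene ST 1.1 array from Affymetrix. The treated mice also differ from C57 in carrying the *mdx* mutation, so this comparison holds the disease and the treatment together. Values of the untreated *mdx* mice are given beside many of the results but not all. Where they are missing, a difference from C57 does not show whether untreated muscle had it too. RNA came from cryosections of the whole mid-belly, so that in every result below fewer cells of a type and less RNA per cell cannot be told apart.

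The *mdx* mouse carries a premature stop codon in the dystrophin gene Dmd. Dystrophin ties the actin cytoskeleton of the fibre to a complex of membrane proteins and, through it, to the basement membrane, and fibres without it are damaged, cleared by macrophages, rebuilt from satellite cells and surrounded by excess matrix. A phosphorodiamidate morpholino oligonucleotide (PMO) binds the precursor RNA and blocks a splice site, so that the exon with the stop codon is left out and a shortened protein is made. Pip6e is an arginine-rich peptide that carries the PMO into muscle. The PMO is shown because it is the agent that separates the treated mice from the untreated ones. The 25 bases, 5′ to 3′, hold in capitals a stretch that pairs with CAGGTAAG, the textbook consensus of a splice donor site (positions 14 to 21 of the oligonucleotide):
PMO: ggccaaacctcggCTTACCTGaaat

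The labelled tissue was borne out by its fibre genes. All 7 fibre markers, among them Ckm, Myh4 and Tnnt3, passed the signal minimum and none differed between treated and C57 muscle, and their summed linear signal was 36493 to 38860 in C57 and 37271 to 42546 in treated mice. The probe set of Dmd reads the transcript as a whole, so it does not show whether the exon was left out. Its log2 signals were 5.87, 5.83 and 5.77 in C57, 5.82, 5.36, 5.33 and 4.60 in *mdx* and 6.34, 5.51, 5.68 and 5.68 in treated mice. The groups overlapped, and treated muscle differed from C57 by -0.02 (95% interval -0.55 to 0.51, limma adjusted p = 0.96). Among the arrays, treated mouse 2 stood apart. Its median absolute deviation from its own group, scaled to an SD, was 0.38 against 0.15 to 0.25 on the other 10 arrays, and its correlation with the *mdx* mean across genes was 0.988, against 0.968 to 0.982 in the other treated mice.

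The muscle of treated mice was far from wild-type. The 3128 genes called were 26.7% of those tested, 2091 (17.8%) being higher and 1037 (8.84%) lower in treated than in C57 muscle, and 1452 of them differed by at least 1.5-fold. Thus 66.8% of the calls were rises, but this share was 56.1% with each array centred on its median and 52.6% after a repeated quantile normalization. The median difference over all genes was 0.03. Counts of called members of the gene lists below are to be read beside the shares of 17.8% higher and 8.84% lower. The 4 treated mice all lay on one side of the 3 C57 mice in 3776 genes (32.2%). At the edge of the call, Abl1 had an adjusted p of 0.04999 with a difference of -0.27, and Mfap3 had 0.05001 with a difference of 0.36. Untreated *mdx* muscle, tested against the same 3 C57 mice in the same fit, had 1552 genes called (13.2%), 936 higher (7.98%) and 616 lower (5.25%), and treated against untreated *mdx* muscle had 1349 (11.5%).

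**Figure D1:**
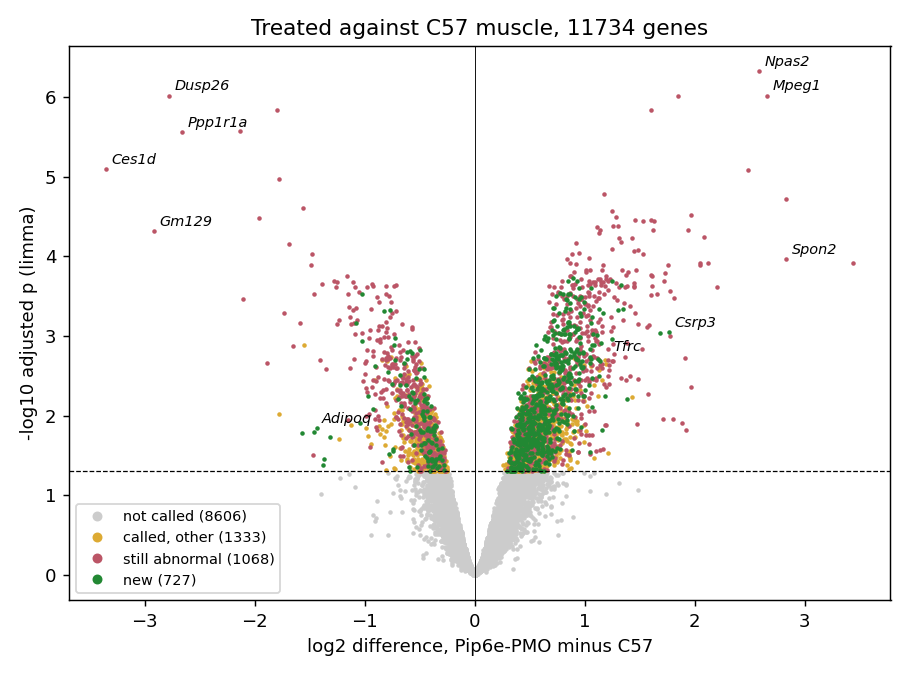
Log2 difference of treated minus C57 muscle (x axis) and -log10 of the limma adjusted p (y axis) for 11734 genes, coloured by class, with the dashed line at an adjusted p of 0.05. The largest differences in both directions belong to genes also called in untreated *mdx* muscle (1068), while the 727 genes away from both other groups lie mostly on the side of the rises (612).

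Of the genes called, 1068 (34.1%) were also called in untreated *mdx* muscle in the same direction and are termed still abnormal, 649 higher and 419 lower than in C57. The median absolute difference from C57 of these genes was 0.71 in treated and 0.67 in untreated mice. In 970 of them treated and untreated muscle did not differ past the threshold, in 42 the treated level had moved back towards C57, and in 56 it had moved further away. A gene called against C57 and against untreated *mdx* muscle in the same direction, and not called in *mdx* against C57, is termed new. There were 727 such genes (23.2%), 612 higher and 115 lower, and their median absolute difference from C57 was 0.60 in treated and 0.10 in untreated mice. Another 1329 genes (42.5%) were called against C57 in treated muscle only, without a called difference from untreated *mdx* muscle, and 4 were called in both kinds of muscle in opposite directions. Both classes rest on comparisons that share mice, so their sizes are a description and no test of overlap. The number of new genes depended strongly on single mice. It was 1958 without treated mouse 2, between 124 and 265 without treated mouse 1, 3 or 4, 261 without *mdx* mouse 3, 169 without *mdx* mouse 4, and 419 and 464 without C57 mouse 2 and 3. The number of still abnormal genes was 585 and 635 without C57 mouse 2 and 3.

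The largest falls were those of a lipid hydrolase, of clock genes and of regulators of phosphatases and Wnt signalling. Ces1d, a carboxylesterase (chr8:93166072-93197804 of GRCm38.p6), had log2 signals of 8.69, 9.19 and 8.81 in C57 and of 5.30, 5.99, 5.25 and 5.66 in treated mice. It was 10.2-fold lower, a log2 difference of -3.35 (standard error 0.25, limma adjusted p = 8.1e-06), and untreated *mdx* mice at 5.23 to 6.41 lay with the treated ones. Dusp26, a dual-specificity phosphatase, measured 8.92, 9.10 and 9.22 in C57 and 6.11, 6.48, 6.26 and 6.37 in treated mice, a difference of -2.77 (standard error 0.16, limma adjusted p = 9.6e-07). Ppp1r1a, an inhibitor of protein phosphatase 1, was within 9.18 to 9.22 in the C57 mice and at 6.30 to 6.65 in the treated ones, a difference of -2.66. Frzb, a secreted Wnt antagonist, fell by 2.13 on the log2 scale from 6.39 to 6.80 in C57 to 4.29 to 4.68 in treated mice, where both untreated and treated means lie below the linear signal of 30, so that background limits the size of this fall. Slc15a5, a solute carrier, differed by -2.10. Kcng4, a modifier subunit of voltage-gated potassium channels, went further than in untreated muscle. Its values were 8.49, 8.62 and 8.61 in C57, 7.24 to 7.60 in *mdx* and 6.92, 6.87, 6.68 and 6.64 in treated mice. The *mdx* mice thus lay between the other groups without overlap, and treated differed from untreated muscle by -0.64 (limma adjusted p = 0.0092).

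Among the largest rises were matrix, macrophage and clock genes, and transcripts of imprinted loci. Spon2, a secreted matrix protein (chr5:33213518-33218254 of GRCm38.p6), measured 5.10, 4.55 and 4.53 in C57 and 6.48, 8.10, 7.80 and 7.86 in treated mice. It was 7.13-fold higher (log2 difference 2.83, standard error 0.30, limma adjusted p = 1.1e-04), with treated mouse 1 lowest of the treated mice. Mpeg1, which encodes a perforin-like protein of macrophages, measured 4.58, 4.07 and 4.40 in C57 and 6.91, 7.26, 7.02 and 6.83 in treated mice, a difference of 2.65 (standard error 0.15, limma adjusted p = 9.6e-07). The C57 means of Spon2, Mpeg1, Igfn1 and Ust lie below a linear signal of 30, so background limits how large these rises can appear. Cilp, a matrix protein first described in cartilage, rose by 2.08, Prune2 by 2.12, the imprinted Mest by 2.04 and Igfn1, an immunoglobulin-like protein of the sarcomere, by 2.20. Prnd, which encodes the prion-like protein doppel, rose by 2.48 and lay above untreated muscle as well (7.78 to 8.21 in treated, 6.87 to 7.32 in *mdx* and 4.98 to 5.76 in C57 mice). Snord116, a small nucleolar RNA of an imprinted cluster, had the largest difference of all genes named here, 3.44, but its 21 probe sets carry nearly the same values and match several transcripts. Ust, a sulfotransferase of glycosaminoglycans, rose by 2.83 in the probe set used, which matches several transcripts too, while its other probe set differed by 0.18. Of 116 genes examined by name, 12 had several probe sets past the signal minimum, and in all 12 these had the same sign.

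**Figure D2:**
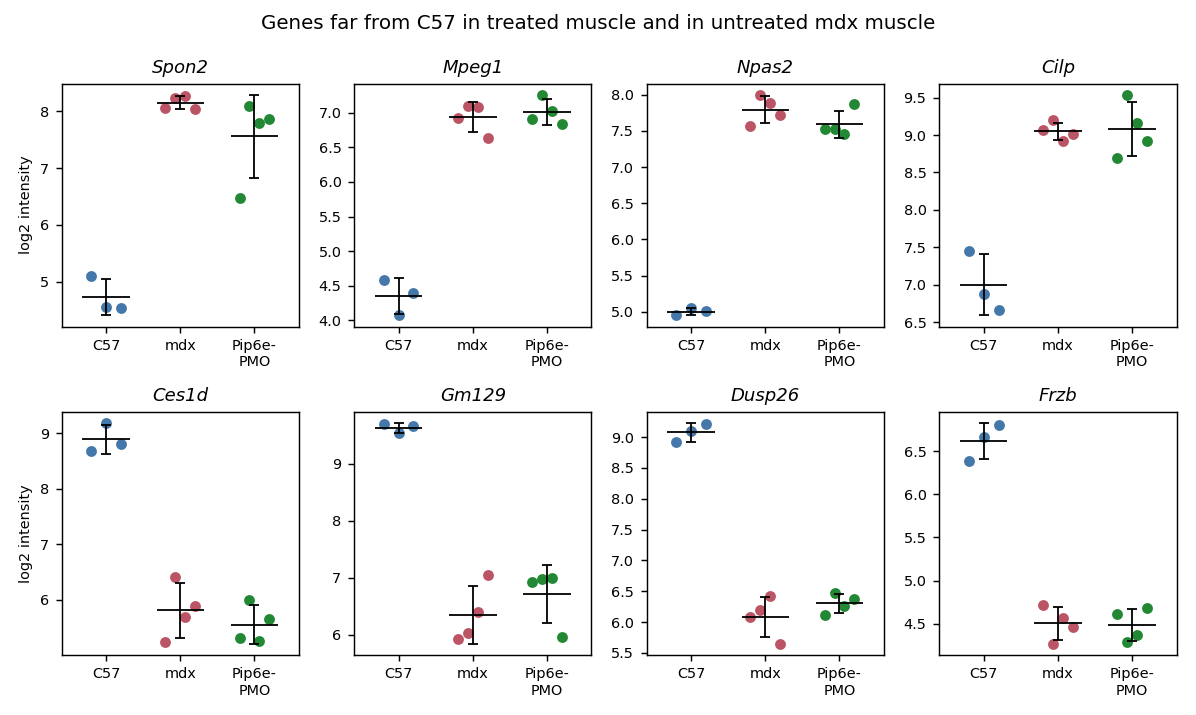
Log2 intensity (y axis) of 8 still abnormal genes in each of the 11 mice, by group (x axis); horizontal lines are means and error bars are SDs. For each gene the 4 treated mice lie apart from the C57 mice, as the choice of genes required, and on the side of the untreated *mdx* mice. Npas2, for one, is at 7.45 to 7.87 in treated against 4.95 to 5.05 in C57. For Spon2, treated mice 1, 3 and 4, at 6.48, 7.80 and 7.86, lie below the *mdx* range of 8.04 to 8.27.

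The clock genes were among the most altered of all. The circadian clock of a cell runs on Arntl (BMAL1) with Clock or its paralog Npas2, which switch on Per, Cry and Nr1d genes and the output factors Dbp, Tef and Hlf by binding the E-box CACGTG, and whose own transcripts peak at the opposite phase. Of 12 genes with a day-phase peak, 10 were called lower in treated muscle and none higher, with a median difference of -0.94 against 0.03 over all genes. All 10 were also called lower in untreated *mdx* muscle, where the median was -1.26. Gm129, now named Ciart, a repressor of the Arntl and Clock pair, measured 9.69, 9.53 and 9.66 in C57 and 6.93, 6.97, 6.99 and 5.95 in treated mice, a 7.55-fold lower level (log2 difference -2.92, standard error 0.28, limma adjusted p = 4.8e-05). Per2 differed by -1.96 and Hlf by -1.78. Both were chosen as genes with no overlap between treated and C57 mice, which held for 32.2% of all genes. Per3, at 7.96, 7.52, 7.79 and 7.29 in treated against 8.41 to 8.70 in C57 mice, was the only one of the 10 that had moved back from the untreated level (treated minus *mdx* 0.67, limma adjusted p = 0.020). Nr1d1 and Nr1d2, which encode the REV-ERB receptors, were not called (0.24 and 0.25, limma adjusted p = 0.073 and 0.34). The call of Per1 (-1.47, limma adjusted p = 0.031) was lost when C57 mouse 2 or 3, or treated mouse 3 or 4, was left out.

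The night-phase genes went the other way. Npas2 was 4.95, 5.05 and 5.01 in C57 and 7.52, 7.52, 7.45 and 7.87 in treated mice, a 6.01-fold higher level (log2 difference 2.59, standard error 0.13, limma adjusted p = 4.7e-07). Arntl rose by 1.75 (standard error 0.19, limma adjusted p = 1.3e-04) and Clock by 0.88, while Nfil3 and Cry1 differed by 0.02 and -0.08 and were not called. With 3 of 5 genes called higher and none lower, beside 17.8% higher over all genes, the list had a median difference of 0.88. All 3 lie in the longest of 5 equal groups of genes by length, in which 31.6% were called higher. The part of length in these calls was not tested. Clock was not called in untreated muscle (0.51, limma adjusted p = 0.15) and lost its call without C57 mouse 3. The time of day at which each muscle was taken was not given in the sources used here.

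**Figure D3:**
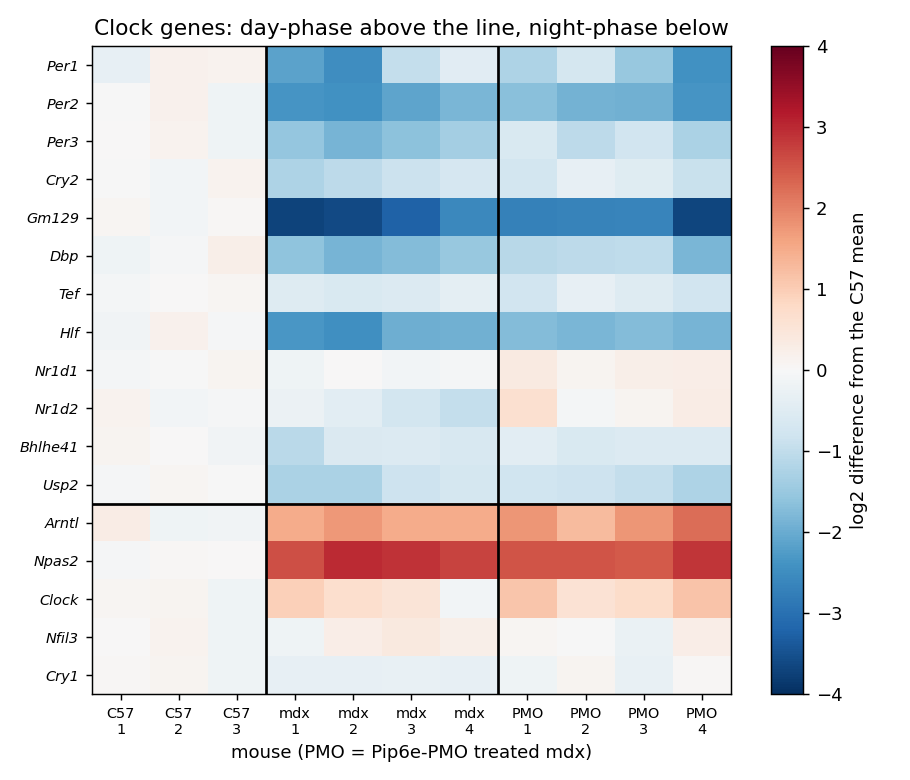
Difference of each mouse from the C57 mean on the log2 scale (colour) for 17 clock genes (rows) in 11 mice (columns), with 12 day-phase genes above the horizontal line and 5 night-phase genes below it. Day-phase genes other than Nr1d1 and Nr1d2 are lower in all 8 *mdx* mice, treated or not, and Arntl and Npas2 are higher in all 8.

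Because day-phase genes moved together, the 250 bases before their annotated starts were searched for CACGTG, which reads the same on both strands. Promoters in RefSeq on GRCm38.p6 were at hand for 11 of the 12 day-phase genes, and 4 of them (Per1, Gm129, Tef and Bhlhe41) held it, as did 1 of 5 night-phase genes (Cry1). It was found in 10.1% of the 9091 tested genes with a promoter and in 6.86% of all 27025 genes with one. The 3 promoters printed here belong to day-phase genes that were called lower in treated muscle, with CACGTG in capitals. A match is a description of the letters only. In Ciart, on the minus strand (chr3:95882229-95882478), the motif starts 116, 58 and 44 bases before the transcript start, in Per1, on the plus strand (chr11:69098699-69098948), 166 bases before it, and in Tef, on the plus strand (chr15:81802423-81802672), 127 bases before it. These are starts of 1 annotated transcript each, which for Ciart and Per1 lie inside the span of the gene:
Ciart: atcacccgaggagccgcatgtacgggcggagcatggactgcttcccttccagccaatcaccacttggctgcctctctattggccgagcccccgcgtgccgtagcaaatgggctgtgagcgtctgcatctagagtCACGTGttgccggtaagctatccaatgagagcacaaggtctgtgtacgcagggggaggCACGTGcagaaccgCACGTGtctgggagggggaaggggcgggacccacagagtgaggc
Per1: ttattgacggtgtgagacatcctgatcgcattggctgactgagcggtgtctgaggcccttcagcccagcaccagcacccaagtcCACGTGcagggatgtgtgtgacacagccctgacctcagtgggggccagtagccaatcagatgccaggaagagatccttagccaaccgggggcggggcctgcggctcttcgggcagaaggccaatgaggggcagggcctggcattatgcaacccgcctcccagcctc
Tef: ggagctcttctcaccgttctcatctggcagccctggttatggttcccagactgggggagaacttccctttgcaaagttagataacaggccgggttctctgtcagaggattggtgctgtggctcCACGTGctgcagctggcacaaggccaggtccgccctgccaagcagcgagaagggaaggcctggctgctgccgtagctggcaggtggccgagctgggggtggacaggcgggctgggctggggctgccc

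Matrix genes remained above wild-type. Of 29 genes of the extracellular matrix, 19 were called higher in treated than in C57 muscle and none lower, with a median difference of 0.63, and 18 were called higher in untreated *mdx* muscle, where the median was 0.88. Besides Spon2 these included Lum, a small proteoglycan that binds collagen fibrils, at 6.54, 6.66 and 6.79 in C57 and 8.17, 8.58, 8.58 and 8.42 in treated mice (log2 difference 1.77, limma adjusted p = 0.0010). Postn (periostin) measured 4.79, 4.39 and 5.56 in C57 and 6.40, 7.37, 6.93 and 6.62 in treated mice, and its call (1.92, limma adjusted p = 0.015) was lost without C57 mouse 2. Timp1, an inhibitor of matrix metalloproteinases, was the 1 matrix gene called below untreated muscle. Its C57 mean was 5.71 (SD 0.45, n = 3), untreated mice ran from 8.61 to 10.23, and treated mice measured 7.02, 8.66, 7.70 and 7.34. Treated muscle was 1.97 above C57 and 1.53 below untreated muscle (limma adjusted p = 0.0044 and 0.025), with treated mouse 2 inside the range of the untreated mice. The fibrillar collagen genes Col1a1 and Col1a2 differed by 0.21 and 0.29 and were not called, whereas Col3a1 (1.26) and the basement membrane collagen Col4a1 (1.23) were. Of 9 fibroblast markers, 6 were called higher, among them Pdgfra (1.06), and Ly6a was called lower (-0.39) and was new. Only 4 were called higher, and Ly6a was not called, without C57 mouse 2 or 3 or treated mouse 3 or 4, and Ly6a was also not called without treated mouse 1.

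Macrophage genes were higher than in C57 but lower than in untreated muscle for a part of the list. Of 23 markers that passed the signal minimum (25 listed), 14 were called higher and none lower, with a median difference of 1.04, against 22 higher and a median of 1.66 in untreated *mdx* muscle. Markers low in C57 passed only through the treated mice, among them Mpeg1 and Ms4a7 (mean linear signals of 20.6 and 21.0 in C57). Cd163 (28.8 in C57 and 23.0 in treated mice) and Aif1 (12.7 and 13.6) did not pass. With no signal minimum, 14 of 25 were called higher and 1 lower. The summed linear signal of all 25 was 3193 to 3664 in C57, 8359 to 12882 in *mdx* and 5228, 9068, 5811 and 6138 in the treated mice, so that treated mouse 2 alone reached the untreated range. Without that mouse 14 of 23 markers were again called higher. The lysosomal protein gene Cd68 measured 7.53, 7.30 and 7.41 in C57 and 8.11, 9.15, 8.26 and 8.48 in treated mice, 1.09 above C57 and 1.03 below untreated muscle (limma adjusted p = 0.0088 and 0.021). Lgals3 (galectin-3) and Trem2 showed the same placing between the other groups, with differences from C57 of 1.37 and 1.04. Mpeg1 and Cybb, the catalytic subunit of the phagocyte NADPH oxidase, did not differ from untreated muscle past the threshold (0.07 and 0.28) and were 2.65 and 1.97 above C57. Mrc1, the mannose receptor of resident macrophages, was new, at 5.84, 5.67 and 5.61 in C57 and 6.43, 6.64, 6.73 and 6.76 in treated mice (0.93, limma adjusted p = 8.2e-04), although its difference of 0.45 in untreated muscle had an adjusted p of 0.057. For the complement genes C1qa, C1qb and C1qc the differences were 0.43 to 0.65 and were not called.

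Of 7 genes of antigen presentation by MHC class II, 5 were called higher, led by H2-Ab1 (1.04), with H2-Aa, H2-Eb1 and Cd74 also called below untreated muscle. In untreated *mdx* muscle all 7 were called higher, with a median difference of 1.28, against 0.74 in treated muscle. Without C57 mouse 2 only 3 of the 7 were called, and H2-Aa lost its call. The 9 neutrophil markers did not reach the signal minimum in C57 or treated mice and were not tested. Their summed signals were 97.3 to 108 in treated, 105 to 117 in C57 and 135 to 178 in untreated *mdx* mice. The untreated mice thus lay above both other groups without overlap, at low signals. Of 11 T and NK cell markers only Nkg7 was tested (1.03, limma adjusted p = 0.023, with a C57 mean below a linear signal of 30), and it lost its call without C57 mouse 1 or 2 or treated mouse 3, and of 6 B cell markers only Cd79b was (0.20, not called). None of 6 red blood cell genes was called, the largest differences being those of Alas2 (-0.49) and Slc4a1 (-0.48). Of 13 interferon-response genes 1 was called, Ddx58 (0.46), which lost its call in 13 of 22 alternatives, but 9 were called higher without treated mouse 2.

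Genes of regenerating fibres were partly above wild-type. Of 16 genes tested, 8 were called higher and none lower, with a median difference of 0.73, against 12 and 1.36 in untreated *mdx* muscle. The 8 calls became 4 without C57 mouse 2 or 3, and 5 without C57 mouse 1 or treated mouse 1 or 3. Tmem8c, which encodes the fusion protein myomaker, measured 5.53, 5.11 and 5.02 in C57 and 6.89, 8.59, 6.91 and 6.04 in treated mice. Treated mouse 2 lay within the untreated range of 7.75 to 9.27, and the difference from C57 was 1.89 (standard error 0.47, limma adjusted p = 0.013) and lost its call without C57 mouse 3. Mybph, a myosin-binding protein, was called (1.04, limma adjusted p = 0.031) although treated mouse 4 at 6.56 lay below the highest C57 mouse at 6.71, and its call was lost without C57 mouse 1 or 2 or treated mouse 1, 2 or 3. Embryonic myosin Myh3 and the myogenic factor Myog differed by 1.08 and 0.51 and were not called. The cell cycle inhibitor Cdkn1a lay between the other groups, 1.11 above C57 and 0.93 below untreated muscle. Of 11 tubulin genes, Tubb6 (0.74) and Tubb2b (0.63) were called higher and Tuba8 (-0.47) and Tubb4 (-0.52) lower. The share of rises was close to the 17.8% over all genes, of which 8.84% were called lower. In untreated *mdx* muscle 7 of the 11 were called higher and 1 lower, beside 7.98% higher over all genes there. The median difference was 0.58 in untreated and 0.10 in treated muscle. Treated and untreated muscle differed past the threshold in 5 of the 11. Tubb6 had moved back from the untreated level (treated minus *mdx* -1.07, limma adjusted p = 0.0065). The call of Tubb2b was lost in 15 of the 22 alternatives run for it.

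Contractile genes of fast fibres stayed close to wild-type, with none of 14 called. The largest differences were those of Myh1 (0.35, limma adjusted p = 0.064) and of Mylpf and Tpm1 (0.07 each). Among 11 slow-fibre genes, the calcium pump Atp2a2 (0.78) and Mybpc1 (0.49) were called higher, and the light chains Myl3 (-0.87) and Myl2 (-0.97) lower. Myl3 had moved back from the untreated level (treated minus *mdx* 0.81, limma adjusted p = 0.026), while Myl2 was new, with log2 signals of 4.88 to 5.55 in C57 and 3.90 to 4.62 in treated mice, the latter below a linear signal of 30, so that background limits its fall. Without C57 mouse 3 Myl3 and Mybpc1 lost their calls, and without C57 mouse 2 Myl3 did. Of 16 genes of calcium handling, Hrc and Asph were called higher (0.42 and 0.39) and Cacnb1 and Stac3 lower (-0.36 and -0.30). In the slow-fibre and calcium lists the rises were near or below the 17.8% over all genes, of which 8.84% were called lower. Stac3 lost its call in 13 of 23 alternatives, among them without any 1 of the C57 mice, Asph in 5, among them without C57 mouse 2 or treated mouse 4, and Hrc in 3, among them without C57 mouse 3. At the neuromuscular junction, Musk and Chrnb1 were called higher (0.58 and 0.53) among 11 genes and none lower, a share close to the 17.8% over all genes. Musk lost its call in 9 of 23 alternatives, and neither was called without C57 mouse 2 or with only the groups compared in the fit.

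Of 17 genes of the dystrophin complex, 8 were called higher in treated muscle and none lower (median difference 0.36), and 2 were called higher in untreated *mdx* muscle (median 0.07). Over all genes, 17.8% were called higher in treated and 7.98% in untreated muscle. Treated and untreated muscle, compared directly, differed past the threshold in 3 of the 17. These are long genes. The longest of 5 equal groups of genes by length, in which 31.6% of genes were called higher in treated muscle, holds 10 of the 17 and 6 of the 8 called, and the part of length in these calls was not tested. Sntb2, a syntrophin, measured 7.02, 7.01 and 6.89 in C57 and 7.77, 8.05, 7.83 and 7.72 in treated mice (0.87, limma adjusted p = 1.7e-04) and was also 0.44 above untreated muscle. Lama2, the laminin chain that binds dystroglycan, spans 636 kb and was 0.99 higher than in C57. The sarcoglycan gene Sgcb (0.65) and sarcospan, Sspn (0.36), were new. Utrn, the dystrophin paralog utrophin, measured 6.66, 6.42 and 6.10 in C57 and 7.40, 6.66, 6.86 and 7.14 in treated mice, so that the groups touched. Its difference was 0.62 (limma adjusted p = 0.022), and its difference of 0.51 from untreated muscle was not called (limma adjusted p = 0.058). With C57 mouse 3 left out, 4 of the 17 were called, and with C57 mouse 2 or treated mouse 4 left out, 5 were.

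**Figure D4:**
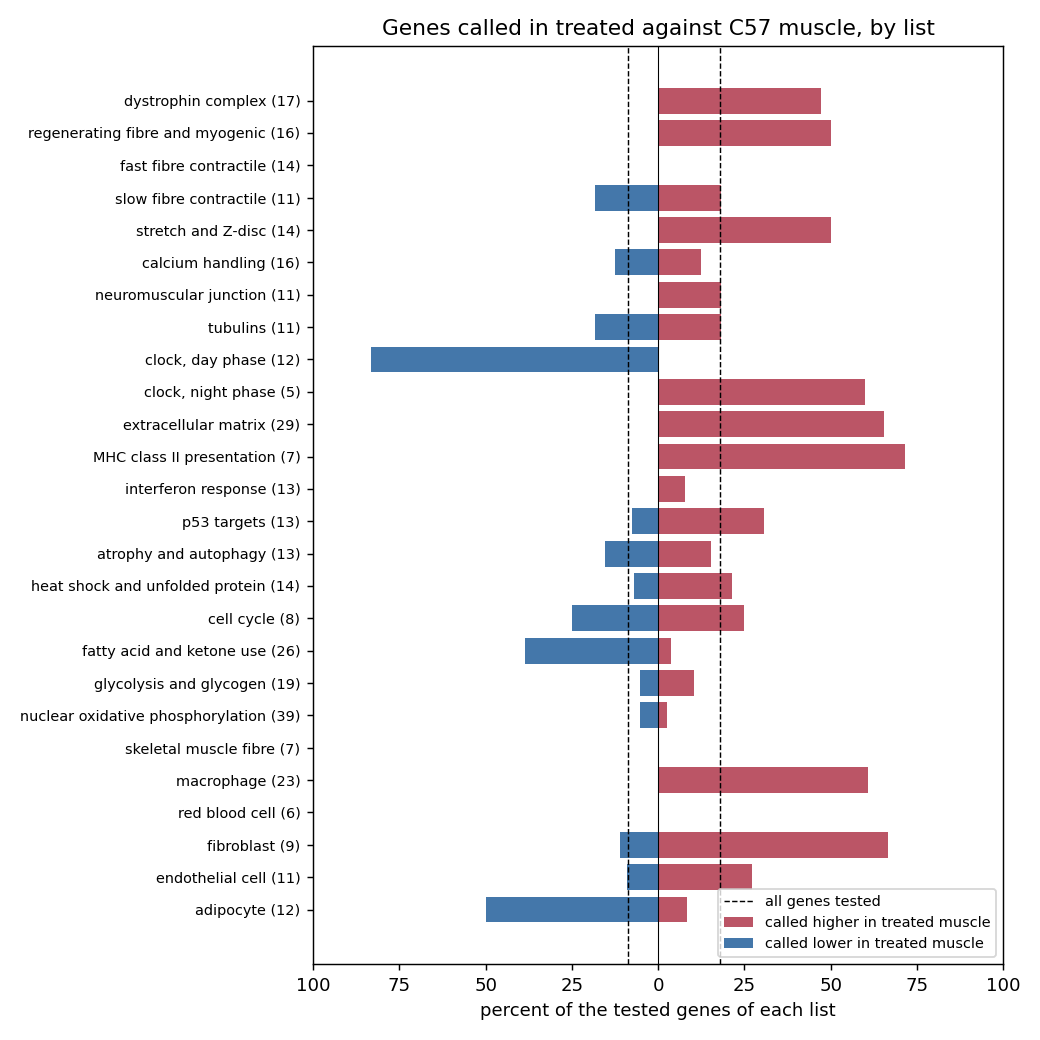
Percent of the tested genes of each list with at least 5 tested (number in parentheses) called higher (red, to the right) or lower (blue, to the left) in treated against C57 muscle; dashed lines give the same over all 11734 genes, 17.8% higher and 8.84% lower. Day-phase clock genes reach furthest to the left (10 of 12) and the MHC class II genes furthest to the right (5 of 7).

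The new rises were led by Csrp3, the muscle LIM protein, which sits at the Z-disc and responds to stretch. Its log2 signals were 7.20, 6.65 and 7.19 in C57, 7.15, 7.57, 6.93 and 8.26 in *mdx* and 8.71, 8.42, 8.84 and 9.13 in treated mice (chr7:48830398-48848051 of GRCm38.p6). Treated muscle was 3.39-fold above C57 (log2 difference 1.76, standard error 0.27, limma adjusted p = 9.0e-04) and 1.30 above untreated muscle (limma adjusted p = 0.014), and it kept its call against C57 in all 23 alternatives. Tfrc, the transferrin receptor that takes up iron, measured 6.77, 6.94 and 7.28 in C57 and 8.71, 8.43, 8.70 and 8.90 in treated mice, with *mdx* mice spread from 6.95 to 8.41 (1.69 above C57, limma adjusted p = 9.1e-04). Lims1, an adaptor of focal adhesions, was tight within groups at 6.53 to 6.73 in C57 and 7.87 to 8.00 in treated mice. It was 1.33 above C57, and its difference of 0.47 in untreated muscle had an adjusted p of 0.078, so that it is new by a narrow margin, as are Tfrc and Cpne3, with adjusted p of 0.078 and 0.070 there. Eltd1, now Adgrl4, an adhesion receptor of endothelium, rose by 1.38. Gm3002 differed by 1.35 in the probe set used, which matches several transcripts, and by 0.46 to 0.89 in its other probe sets past the signal minimum. In untreated muscle its difference of 0.57 had a limma adjusted p of 0.064, so it too is new by a narrow margin.

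Stretch and Z-disc genes gave 7 of 14 called higher and none lower (median difference 0.44), against 3 in untreated *mdx* muscle (median 0.08). Ankrd2, a titin-binding ankyrin repeat protein, was new, at 9.40, 9.64 and 9.73 in C57, 9.29 to 9.61 in *mdx* and 10.31, 10.17, 9.98 and 10.60 in treated mice (0.68 above C57, limma adjusted p = 0.0059). Its relative Ankrd1 was 1.91 above C57 and 2.80 above it in untreated muscle. Of 11 endothelial markers, 3 were called higher, 1 lower and 7 not, beside 17.8% higher and 8.84% lower over all genes. In untreated *mdx* muscle none of the 11 was called (median difference 0.06, against 0.24 in treated muscle). Pecam1 and Tek were new (0.84 and 0.89), Kdr was called against C57 (0.90) and Vwf was called lower (-0.30, limma adjusted p = 0.0495). Vwf lost its call in 14 of 23 alternatives, Tek without C57 mouse 2 or 3 or treated mouse 1, 3 or 4, and Pecam1 without C57 mouse 3. The summed signal of the 11 endothelial markers was 5019 to 5141 in C57 mice, 4903 to 5532 in *mdx* mice and 5621 to 6272 in treated mice, the treated mice lying above all others. Glycogen branching enzyme, Gbe1, was new and 0.95 higher, and the chaperone Hspa5 was new and 0.59 higher. Gbe1 (256 kb) and Tek (136 kb) lie in the longest of 5 equal groups of genes by length, in which 31.6% were called higher. So does Vwf (134 kb), which was called lower. Pecam1 (61.1 kb) and Kdr (46.25 kb) lie in the group before it, with 26.1% called higher. The part of length in these calls was not tested.

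The 6 largest new falls were those of Prg4, which encodes the lubricant lubricin, and of 5 adipocyte genes. Adipoq, the hormone adiponectin (chr16:23146536-23157968 of GRCm38.p6), measured 6.85, 6.34 and 5.89 in C57, 5.64, 6.96, 6.69 and 6.95 in *mdx* and 4.95, 5.78, 4.24 and 4.72 in treated mice. It differed by -1.44 from C57 (standard error 0.37, limma adjusted p = 0.014) and by -1.64 from untreated muscle (limma adjusted p = 0.017). Plin1, which coats lipid droplets, measured 6.82, 6.56 and 6.37 in C57 and 5.30, 6.03, 4.27 and 4.90 in treated mice, a difference of -1.46. The treated mouse with the highest values of both was again mouse 2, and *mdx* mouse 1 lay below all C57 mice in both. Cidec, another droplet protein, differed by -1.31. Cfd (adipsin, -1.38), Retn (resistin, -1.37) and Prg4 (-1.57) had treated and C57 mice that overlapped. All 6 lost their call with C57 mouse 1 left out. Over the whole adipocyte list of 12 genes tested, 6 were called lower and 1, Cidea, higher, with a median difference of -0.61, and leaving out C57 mouse 1 left 1 called lower, and leaving out treated mouse 3 left 3. Cidea passed the signal minimum only through the treated mice (mean linear signal 20.2 in C57 and 30.9 in treated mice). In untreated *mdx* muscle 2 of the 12 were called higher, Cidea (0.86) among them, and none lower. Fabp4 and Pparg differed by 0.23 each and were not called. Summed over the 13 adipocyte markers, the signal was 2671 to 3997 in C57 mice, 2702 to 4749 in *mdx* mice and 2429 to 2886 in treated mice. How much fat lay in each section was not tested.

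**Figure D5:**
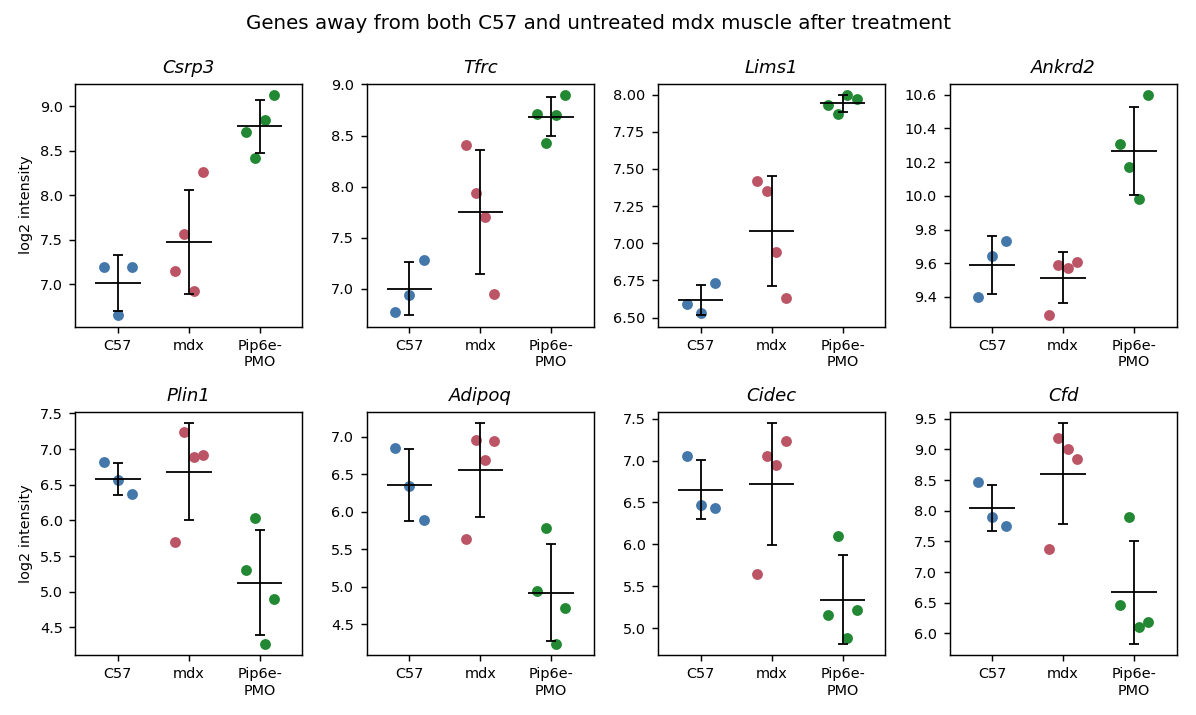
Log2 intensity (y axis) of 8 new genes in each of the 11 mice, by group (x axis); horizontal lines are means and error bars are SDs. Csrp3, Tfrc, Lims1 and Ankrd2 lie above both other groups on average in treated mice, while the adipocyte genes Plin1, Adipoq, Cidec and Cfd lie below them with a wide spread between treated mice.

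Rises and falls in treated muscle differed in gene length, a property that the choice of genes did not use. The median genomic span was 51.8 kb for the 612 new rises and 5.77 kb for the 115 new falls, against 22.2 kb over all genes tested. Genes called against C57 in treated muscle only were much alike, at 44.2 kb for the 829 rises and 8.89 kb for the 500 falls, so that this is not particular to the new genes. The median was 34.7 kb for still abnormal genes that were higher and 20.9 kb for those that were lower. When the 11606 genes with a known span were put in 5 equal groups by length, the median difference of treated from C57 muscle went from -0.15 in the shortest group (up to 6.98 kb) through -0.06, 0.04 and 0.16 to 0.24 in the longest (from 67.9 kb). In untreated *mdx* muscle the same medians lay between -0.02 and 0.02. The share of genes called higher in treated muscle was 6.1% in the shortest and 31.6% in the longest group, and that called lower was 14.4% and 4.4%. Within treated mice the shortest and longest groups had medians of -0.27 and 0.33 in mouse 1, -0.13 and 0.20 in mouse 3 and -0.16 and 0.29 in mouse 4, but of -0.01 and 0.11 in mouse 2. The C57 mice ran from -0.05 to 0.08 in the shortest group and from -0.09 to 0.07 in the longest. Of the 612 new rises, 228 lay in the longest and 226 in the next group, and 62 of the 115 new falls lay in the shortest. The genes also differed in level, with a median C57 log2 signal of 6.24 for new rises and 8.20 for new falls against 6.95 for all genes. The part of gene length, or of RNA quality, in the number of new genes was not tested. Among the new rises with the largest differences, Lims1, Eltd1 and Cpne3 span 101 kb, 107 kb and 50.9 kb, whereas Tfrc spans 23.9 kb, Csrp3 17.7 kb and Gm3002 15.8 kb. The 6 largest new falls span 1.80 kb (Cfd) to 16.8 kb (Prg4).

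Genes of fatty acid and ketone use remained below wild-type. Of 26 genes, 10 were called lower and 1 higher (median difference -0.23), and 11 were called lower in untreated *mdx* muscle. Bdh1, which interconverts ketone bodies, measured 7.25, 7.37 and 7.69 in C57 and 5.76, 5.71, 5.32 and 6.34 in treated mice (-1.65, limma adjusted p = 0.0013). Ucp3, a mitochondrial carrier of muscle, differed by -0.89 and Mlycd, malonyl-CoA decarboxylase, by -0.81. Ppargc1a, the coactivator of mitochondrial genes, was called higher (0.74, limma adjusted p = 0.038), a call lost without C57 mouse 1 or 3 or treated mouse 1 or 4. Leaving out C57 mouse 3 left 4 falls called in place of 10, and leaving out treated mouse 2 gave 6 rises in place of 1. Subunits of oxidative phosphorylation gave 1 call higher, Sdha, and 2 lower, Ndufb5 and Cox5a, among 39. Sdha lost its call in 14 of 23 alternatives and Ndufb5 and Cox5a in 10 each, and none of the 39 was called without C57 mouse 2 or 3 or without treated mouse 1, 3 or 4. Of 19 genes of glycolysis and glycogen, 2 were called higher and 1 lower, Ldhb (-0.98), the heart form of lactate dehydrogenase, and 4 were higher without treated mouse 2. With all mice, the called shares of the oxidative phosphorylation and glycolysis lists lie below those over all genes (17.8% higher and 8.84% lower).

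Genes of Schwann cells and myelin were lower in treated than in C57 muscle. Mbp, myelin basic protein, measured 6.59, 6.54 and 7.33 in C57 and 5.83, 5.57, 5.44 and 5.52 in treated mice (-1.23, limma adjusted p = 6.2e-04), with untreated mice at 5.68 to 6.06. Sox10, the transcription factor of Schwann cells, differed by -0.77, with a treated mean below a linear signal of 30. Both were also called lower in untreated muscle. Cnp, an enzyme of myelin, differed by -0.49 (limma adjusted p = 0.023) and was new, and its call was lost without C57 mouse 2 or 3 and without treated mouse 1 or 4. Of 4 genes tested these 3 were called lower, and Pmp22 was not called (-0.10). The summed signal of the 8 Schwann cell and nerve markers was 1363 to 1708 in C57 mice, 1252 to 1701 in *mdx* mice and 1233 to 1377 in treated mice, so that the groups overlapped.

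The remaining lists had calls in both directions, beside 17.8% higher and 8.84% lower over all genes, and are given as a description only. Of 13 p53 targets, 4 were called higher, among them Trp53inp1 (0.92) and Eda2r (0.81), and Perp was called lower (-0.73). Of 13 atrophy and autophagy genes, Fbxo30 (0.91) and Ctsl (0.46) were higher and Klf15 (-0.72) and Gabarapl1 (-0.41) lower, while the ubiquitin ligases Fbxo32 and Trim63 were not called (0.14 and 0.12). The calls of Ctsl and Gabarapl1 were each lost in 10 of 23 alternatives. Of 14 genes of heat shock and unfolded protein, Hspa5, Hsp90aa1 and Hspa8 were higher and Herpud1 lower (-0.50), and without C57 mouse 3 only 1 was higher. Of 8 cell cycle genes tested, Rrm2 (1.01) and Pcna (0.55) were higher and Mcm2 and Mcm3 lower (-0.40 and -0.43). The C57 mean of Rrm2 and the treated mean of Mcm3 lie below a linear signal of 30. Pcna lost its call without C57 mouse 2.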

How the data were processed

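The authors hybridized total RNA of the TA of 11 mice to Affymetrix Mouse Gene ST 1.1 arrays and made the deposited values with Affymetrix Expression Console (RMA with a sketch-quantile step and summary by median polish). The deposited values are intensities on the linear scale for 28350 probe sets, 25254 of them with a gene symbol. No aligner applies, the genome build of the deposited positions is not given in the sources used here, and gene places are those of GRCm38.p6 in RefSeq by Entrez identifier. No per-sample column was left unused.

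Intensities were taken to log2. With limma 3.58.1 in R 4.3.3, lmFit and eBayes fitted 1 mean per group over all 11 mice, which share the spread, and gave two-sided moderated tests with Benjamini-Hochberg adjustment over 11734 genes. A gene was called at an adjusted p under 0.05. Tables and plots used Python, pandas, NumPy and matplotlib. On simulated data with 200 changed genes among 11734, treated minus C57 recovered 92% of those changed by a log2 difference of 1 and 100% of those changed by 2, with 12 false calls. The simulated noise was independent between genes and equal in spread in every mouse. These arrays differ from that, with treated mouse 2 apart, so these rates need not hold for them. The median intensity per array was 27.5 to 28.6, and the number of arrays limits the precision. Labels number the mice of each group, and p-values measure the spread between these mice. Per the methods, the C57 and *mdx* groups were enlarged with further mice for the arrays. The labels do not mark which, so a batch of this kind was not tested.

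The genes and lists were chosen with earlier results of these data known, so that no count of a list is independent support. Genes named are the 10 largest rises and falls among called genes with no overlap of treated and C57 mice, the 6 largest new rises and falls, Dmd and members of the lists, mostly the largest called differences. Other list members not called or described beside them, and Abl1 and Mfap3 at the threshold, were chosen after their values were seen. Lists are described by counts and medians, with no set test. The alternatives were other fits, signal minima, scalings, probe set rules, the t-test of the methods, a replicate block and leaving out each mouse. Counting genes with identical values once was added after seeing the data. The 702 unnamed probe sets were tested apart. Of the lists, 3 genes are not reported here and enter none of the counts or sums of lists.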

Additional observations from a re-analysis of the deposited data

Results flagged for a closer look

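In 11 of 232 sets of 4 mice examined (a named gene in treated or in untreated mice), 1 mouse lay far from the other 3, its gap to the nearest taking up most of the whole range of the 4 by Dixon's 95% criterion. The ratio is that gap over the range. Chance gives about 1 in 20, which is near this number. Of the treated mice, mouse 4 had the lowest Gm129 (5.95 against 6.93 to 6.99, ratio 0.942) and the highest Npas2 (7.87 against 7.45 to 7.52, ratio 0.833). Mouse 2 had the highest Cdkn1a (9.46 against 8.67 to 8.76, ratio 0.886) and Ctss (7.11 against 6.98 to 6.99, ratio 0.923). Mouse 1 had the highest Sntb1 (7.05 against 6.57 to 6.62, ratio 0.896).

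In untreated *mdx* mice the ratio was 0.917 for Prune2, 0.933 for Mybph, 0.875 for Ankrd2, 1 for Stac3, 1 for Arntl and 0.855 for Ppargc1a. For Stac3 and Arntl the other 3 mice include equal values at the resolution of the file.

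Probe sets without a gene symbol enter none of the comparisons of named genes. Of the 702 that passed the signal minimum, 183 (26.1%) were called in treated against C57 muscle by limma, 18 higher and 165 lower.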

How the results depend on the processing

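Over 23 alternatives, 116 genes gave 2369 results with the same direction and call, 271 that lost the call, 4 that gained one and none that reversed. The genes called against C57 numbered 1963 (1158 higher, 844 of at least 1.5-fold, 698 still abnormal and 471 new) with a minimum signal of 100, which tests 7342 genes. Array weights, which put treated mouse 2 at 0.25, gave 5741 called, 3445 higher, 2296 lower, 2164 still abnormal and 2194 new. The methods' t-test after Benjamini-Hochberg gave 1173 called, 794 higher, 379 lower, 719 of at least 1.5-fold, 314 still abnormal and 9 new. An unadjusted p under 0.01 with 1.5-fold gave 1426 called, 1133 higher, 293 lower, 566 still abnormal and 255 new. Fits of only the groups compared gave 409 new genes. Scaling alternatives kept all 6 counts within 1.5 times and moved the median of all genes by less than 0.1, and the cause of the moves of counts was not tested. Leaving out 1 mouse at a time gave 1745 to 4344 called, 1252 to 2702 higher, 493 to 1642 lower, 1156 to 1810 of at least 1.5-fold, 585 to 1219 still abnormal and 124 to 1958 new. The lowest counts called came without C57 mouse 3 (1745) or 2 (1908) and the highest without treated mouse 2. Ust had a difference of 0.36 without treated mouse 1, because its other probe set was then the brighter one.

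Mice of the same number in different groups correlated by -0.33 to 0.18 in their deviations from the group means. With so few mice in a group, this cannot decide whether the numbers pair the mice. With a replicate block the counts were 2215 called, 1568 higher, 647 lower, 1401 of at least 1.5-fold, 727 still abnormal and 334 new.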
